A study of Mus musculus with 6 samples.

Results

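The proteasome genes of the mouse lens were compared between animals lacking Cd24a and wild-type animals. Members were all genes whose symbol begins with Psm, a letter from a to g and a digit, leaving out pseudogenes with -ps in the symbol, which gave 51 of the 55416 genes counted. Of these, 46 had enough reads to be tested, among 11474 tested genes. The study took whole lenses from mice with a germline knockout of Cd24a (strain label C57BL/6) and from wild-type mice (strain label C57BL/har), with 3 samples per genotype and 2 lenses pooled in each sample. Cd24a encodes a small surface glycoprotein anchored by a lipid. A germline deletion affects every cell of the animal, so the comparison is not of a loss in lens cells alone, and the differing strain labels mean that strain and genotype cannot be told apart. All animals were untreated adults, 8 weeks old by the sample labels and 7 weeks by the series text. In whole lenses, fewer cells of a type and less RNA per cell cannot be told apart.

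The proteasome degrades proteins tagged with ubiquitin. Its 20S core is a barrel of stacked rings, with outer rings of alpha subunits (Psma genes) that form the gate and inner rings of beta subunits (Psmb genes) that hold the cutting sites. The 19S particle caps the barrel, recognises ubiquitin, and unfolds substrates with a ring of ATPases (Psmc genes) held by non-ATPase subunits (Psmd genes). Other activators (Psme genes) can take its place, an inhibitor (Psmf1) can bind the core, and chaperones (Psmg genes, with Psmd5, Psmd9 and Psmd10) assist assembly. In immune cells and under interferon, Psmb8, Psmb9 and Psmb10 replace the constitutive catalytic subunits to form the immunoproteasome. In the lens, fibre cells lose their organelles and keep their proteins for life, and the ubiquitin-proteasome pathway is known to be active in the epithelium and young fibres.

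The libraries held 5384542 to 7302951 counts. Levels are given in CPM, counts scaled to a common library size by the TMM method. Cd24a itself averaged 2910 ± 67.9 CPM over the wild-type libraries against 10.04 ± 2.40 CPM over the knockout libraries (SD, n = 3), so each group followed its label. Of 10 lens markers 9 passed the filter on low counts and Lim2 had 0 counts throughout. Of these 9, Crygs (log2 -0.37) and Bfsp2 (log2 -0.27) were called lower (22.2%, beside 4.48% of all tested genes). The summed lens markers overlapped (302830 to 322619 and 276383 to 312662 CPM). Replicate 3 of each group had abundant Xist (2191 and 2466 counts) and 0 counts of the Y-linked Ddx3y, while the other libraries had at most 4 Xist counts, and these are called the Xist-positive libraries. Summed markers of the retinal pigment epithelium ranged from 47.6 to 70.02 CPM among wild-type libraries and from 23.03 to 33.5 CPM among knockout libraries. Of these 8 markers 6 were tested, 4 were called lower (66.7% of those tested, beside 4.48% of all tested genes), and 0 were at 0 counts. Of 6 cornea markers Aldh3a1, the only 1 tested, was called lower (83.3 to 94.6 and 56.6 to 75.4 CPM). Krt5, Krt14 and Lum had at most 2 counts in a library and Krt12 and Kera had 0. Summed photoreceptor markers overlapped between groups (173.9 to 443.7 and 162.9 to 291.9 CPM). Of these 10 markers 1 was called lower (10%, beside 4.48% of all tested genes), and all 10 log2 fold changes lay below 0 (-0.92 to -0.46, median -0.69). The part of these cells in the values below was not tested, beyond a fit with a photoreceptor score.

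Most proteasome genes differed little between the genotypes. Of 46 members tested, 2 were called higher in the knockout (Psma5 and Psmd1) and 2 lower (Psmb5 and Psme3), using the edgeR quasi-likelihood test with Benjamini-Hochberg adjusted p at most 0.05. This was 8.70% of the members, beside 7.50% of all tested genes (3.02% higher and 4.48% lower), a share near the background. Without adjustment, 6 of the 46 members had p at or under 0.05, a smaller share than the 20.2% of all tested genes. The genotypes did not overlap in 6 members that were higher and 3 that were lower, together 19.6%, beside 24.4% of all tested genes (12.1% higher and 12.4% lower). The median log2 fold change of the members was 0.08, against 0.004 for all tested genes. Of the 46 members 32 lay above 0, beside 50.7% of all tested genes. Scaling by library size alone moved the median of all genes to 0.11 and that of the members to 0.19, so their distance stayed at 0.08. That scaling called 1008 genes higher (8.79%) and 336 lower (2.93%), with 8 members higher (Psma3, Psma5, Psma7, Psmc3, Psmd1, Psmd4, Psmd7 and Psme4) and 1 lower (Psmb5). For 40 members the 95% interval of the fold change excluded a change of 1.5-fold in either direction. The exceptions were the called genes Psma5 and Psmb5 and the scarce genes Psmb10, Psmg2, Psmg3 and Psmc3ip.

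**Figure D1:**
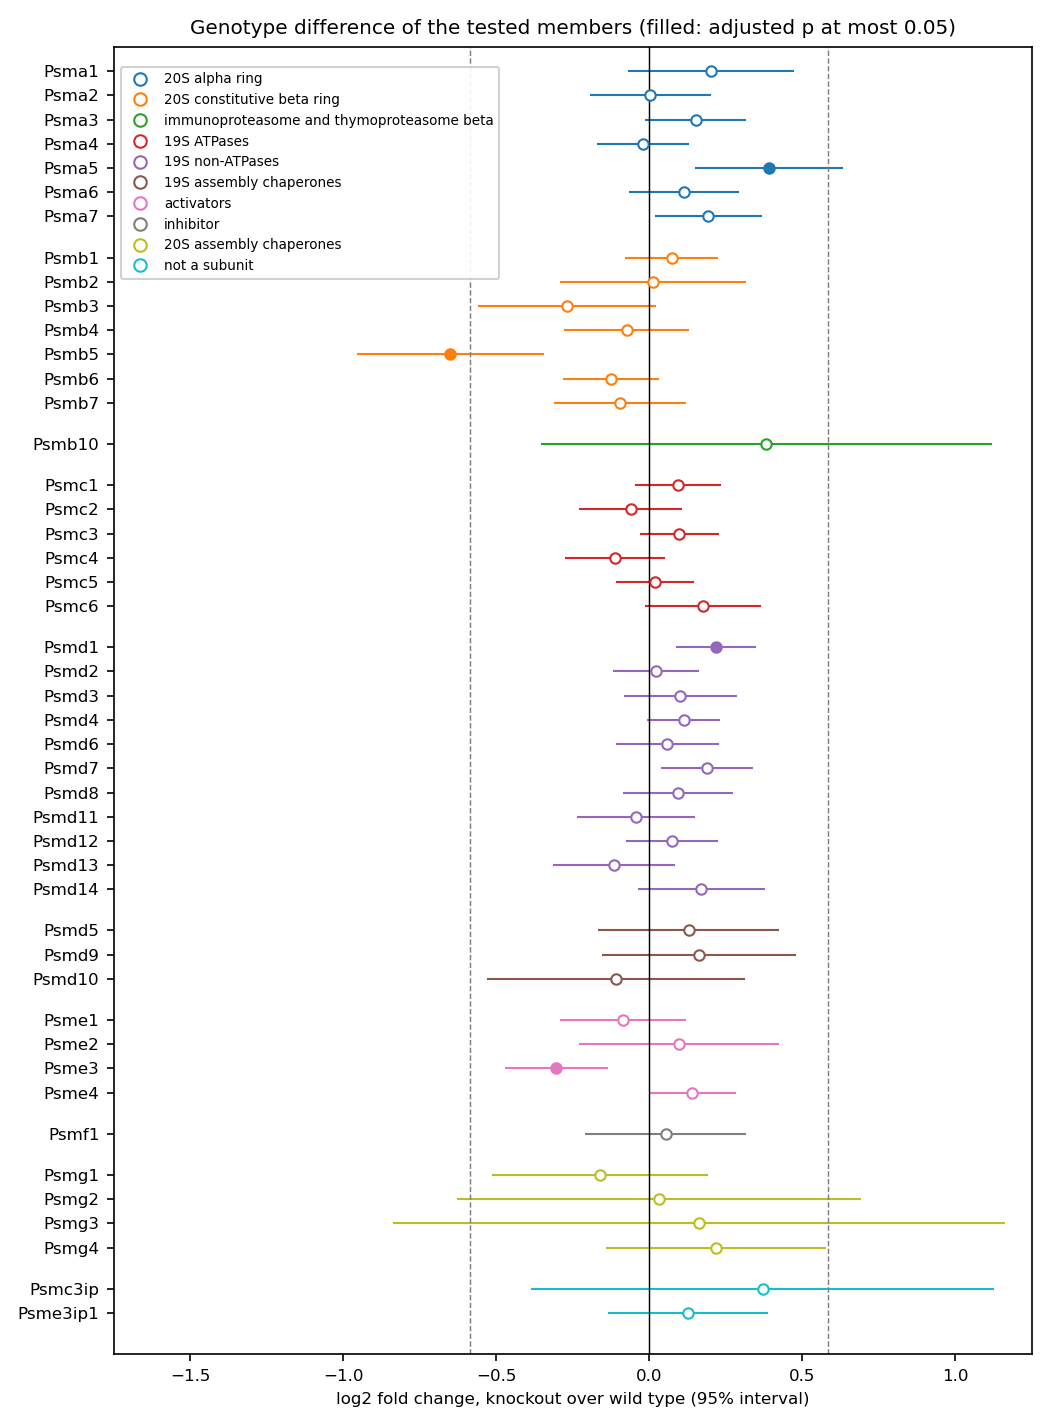
Log2 fold change of the knockout over wild type (horizontal axis) with its 95% interval for the 46 tested members, coloured by class; filled points passed the test and dashed lines mark 1.5-fold. Psmb5 lies farthest from 0, at -0.65, and most other intervals lie between the dashed lines.

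The promoters of the 4 called members are shown because only these passed the test, from 250 bases before the start site to 50 after it. The sequences are RefSeq's on GRCm38.p6, another build than the GRCm39 of the counts. Capitals mark matches, on either strand, to 4 motifs chosen after the calls were known. These were TGACNNNGC (the core of the antioxidant response element), CCGGAA (a core bound by ETS factors), CCAAT (the CCAAT box) and GGGCGG (a GC box). The Psmb5 window is chr14:54617946-54618245 on the minus strand, that of Psme3 chr11:101315963-101316262, that of Psma5 chr3:108256676-108256975 and that of Psmd1 chr1:86064369-86064668, the last 3 on the plus strand.
Psmb5: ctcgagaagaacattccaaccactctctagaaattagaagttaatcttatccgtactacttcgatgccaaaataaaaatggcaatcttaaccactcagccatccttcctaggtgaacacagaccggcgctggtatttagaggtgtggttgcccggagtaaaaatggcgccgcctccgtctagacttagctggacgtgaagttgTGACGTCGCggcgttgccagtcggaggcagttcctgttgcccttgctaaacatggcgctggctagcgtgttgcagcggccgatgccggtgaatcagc
Psme3: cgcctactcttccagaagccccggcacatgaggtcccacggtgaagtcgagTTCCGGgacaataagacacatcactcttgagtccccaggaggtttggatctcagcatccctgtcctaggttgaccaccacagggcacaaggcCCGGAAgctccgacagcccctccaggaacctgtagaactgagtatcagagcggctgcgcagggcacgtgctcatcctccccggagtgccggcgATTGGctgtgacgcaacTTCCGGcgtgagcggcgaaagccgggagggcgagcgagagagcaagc
Psma5: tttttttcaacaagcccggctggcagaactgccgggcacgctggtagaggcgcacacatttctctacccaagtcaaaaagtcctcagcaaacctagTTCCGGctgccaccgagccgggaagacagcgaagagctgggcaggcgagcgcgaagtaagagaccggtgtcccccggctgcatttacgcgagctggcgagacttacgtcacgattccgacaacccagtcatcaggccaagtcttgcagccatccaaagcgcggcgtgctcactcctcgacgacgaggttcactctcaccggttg
Psmd1: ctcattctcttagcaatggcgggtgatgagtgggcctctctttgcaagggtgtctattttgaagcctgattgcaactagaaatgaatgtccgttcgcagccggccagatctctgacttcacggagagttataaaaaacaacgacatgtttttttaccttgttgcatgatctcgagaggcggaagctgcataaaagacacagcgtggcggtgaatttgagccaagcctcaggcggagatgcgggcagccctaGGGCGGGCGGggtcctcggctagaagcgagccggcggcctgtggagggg

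The Psmb5 window held TGACGTCGC, a match to TGACNNNGC. The Psme3 window held CCGGAA at 3 places and CCAAT once, the Psma5 window CCGGAA once and the Psmd1 window GGGCGG at 2 overlapping places. No motif was shared by all 4 windows. RefSeq windows were found for 43 of the 51 members, 4 of them with more than 1 window, of which any could hold a match. CCGGAA was present in 22 of the 43 (51.2%), beside 32.8% of tested genes and 16.7% of all genes with a window. TGACNNNGC was present in 6 (13.95%, beside 17.1% and 13.99%), namely Psmb5, Psmb6, Psmc6, Psmd9, Psmd12 and Psme4. CCAAT was in 37.2% of members (43.2% of tested genes) and GGGCGG in 55.8% (70.7%). A match is a description of letters, not evidence of binding.

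Psmb5 (ENSMUSG00000022193, chromosome 14) encodes the beta 5 subunit, which carries the chymotrypsin-like cutting site of the core, the main target of proteasome inhibitors such as bortezomib. It was at 15.8, 15.6 and 14.1 CPM in the wild-type libraries (replicates 1 to 3) and at 9.71, 9.87 and 9.38 CPM in the knockout libraries. Every knockout library lay below every wild-type library, and the groups did not overlap. The counts behind these were 111, 99 and 87 in wild type and 54, 63 and 51 in the knockout. Psmb5 fell by 0.65 on the log2 scale (SE 0.15, edgeR adjusted p = 0.0065), a knockout to wild-type ratio of 0.637 (95% interval 0.515 to 0.787). The call held in all 17 alternative settings, with log2 fold changes of -0.70 to -0.54 and adjusted p of 0.0032 to 0.043. It was as large when a score of photoreceptor markers entered the fit (log2 -0.67). The pseudogene Psmb5-ps, whose reads could be confused with it, had 0 counts in every library.

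**Figure D2:**
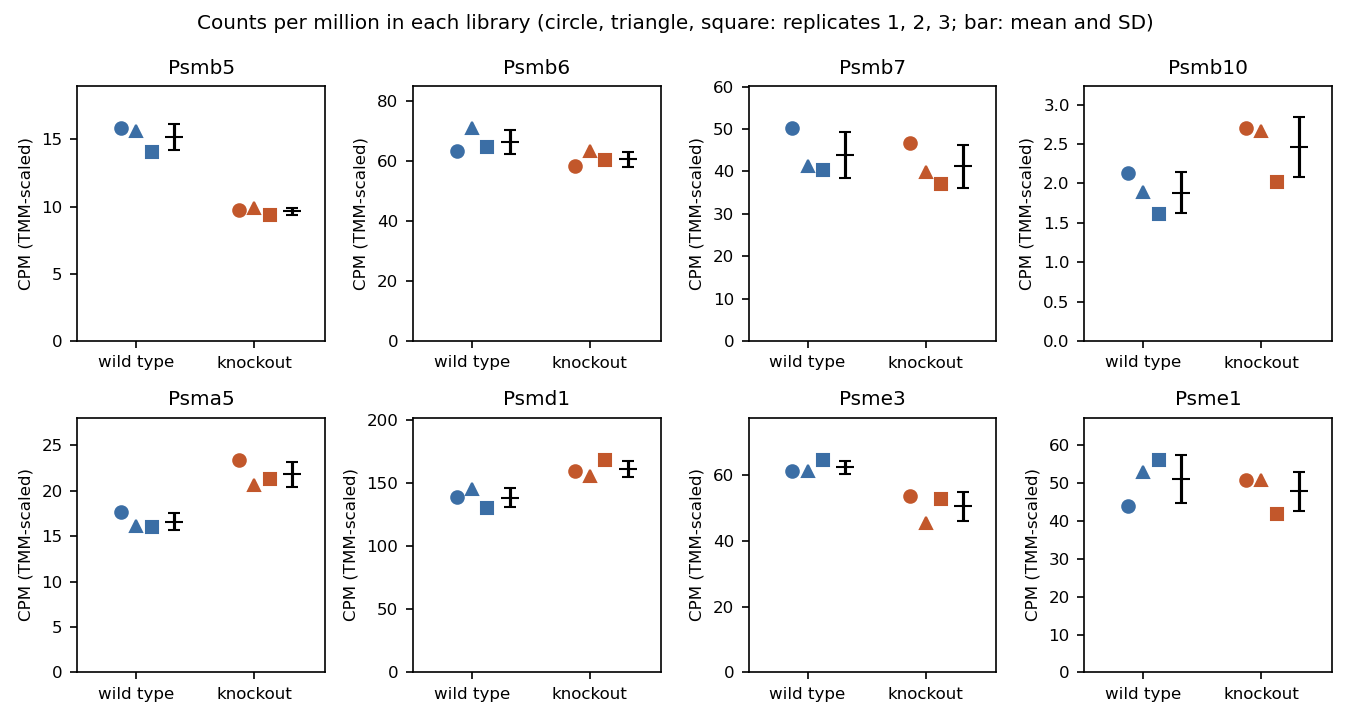
CPM (vertical axes, from 0) of the catalytic subunits Psmb5, Psmb6 and Psmb7, the immunoproteasome subunit Psmb10, the called members Psma5, Psmd1 and Psme3, and Psme1, in each library; black bars show the mean and SD of 3 libraries. The genotypes are separate for Psmb5, Psma5, Psmd1 and Psme3 and overlap for the other 4 genes.

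The other catalytic subunits did not pass the test. Psmb6, with the caspase-like site, was at 63.1, 70.7 and 64.5 CPM in wild type and 58.1, 63.1 and 60.3 CPM in the knockout. Psmb7, with the trypsin-like site, was at 50.1, 41.2 and 40.3 CPM in wild type and 46.8, 39.8 and 36.97 CPM in the knockout. Both overlapped between the genotypes. The log2 fold change of Psmb6 was -0.13 (95% interval -0.28 to 0.03) and that of Psmb7 was -0.10 (-0.31 to 0.12, and 0.02 with library size alone). As a description per kilobase of the deposited gene length, the level of Psmb5 was 0.522, 0.460 and 0.454 times that of Psmb6 in wild type and 0.348, 0.326 and 0.324 times in the knockout. The ratio was thus lower in every knockout library than in any wild-type library. The ratio was chosen after the difference of Psmb5 was seen, so no test is given.

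The remaining beta subunits, without a cutting site, held no call. Psmb3 was at 15.2, 20.99 and 16.98 CPM in wild type and 13.7, 15.2 and 15.1 CPM in the knockout, which do not overlap, although wild-type replicate 1 was almost level with the highest knockout library. Its log2 fold change was -0.27 (95% interval -0.56 to 0.02, edgeR adjusted p = 0.29). Psmb1, Psmb2 and Psmb4 had log2 fold changes between -0.07 and 0.07. Of 7 beta subunits, 5 lay below 0 (3 with library size alone), with a median of -0.10, while 50.7% of all tested genes lay above 0. Psmb5 and Psmb3 lay below without overlap (28.6% of the ring, beside 12.4% of all tested genes). The summed level of the ring averaged 299 ± 19.7 CPM over the wild-type libraries and 285 ± 4.48 CPM over the knockout libraries (SD, n = 3), which overlap.

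The alpha ring lay mostly on the other side of 0. Psma5, the alpha 5 subunit, was at 17.7, 16.1 and 16.01 CPM in wild type and 23.4, 20.7 and 21.3 CPM in the knockout, with no overlap. Psma5 rose by 0.39 (SE 0.12, edgeR adjusted p = 0.044), a ratio of 1.31 (95% interval 1.11 to 1.55). This call was lost whenever 1 library was left out, with adjusted p of 0.057 to 0.18 and log2 fold changes of 0.33 to 0.44. It was also lost in DESeq2 (adjusted p = 0.24), limma-voom (0.057), without the filter on low counts (0.055) and with the photoreceptor score (0.057), with log2 fold changes of 0.39, 0.39, 0.39 and 0.42. The same held with the replicate block (edgeR adjusted p = 0.054, log2 0.39) and without both Xist-positive libraries (0.18, log2 0.37). An antisense gene overlapping Psma5, 1700010K24Rik, had 1 count in all libraries together.

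Psma7 and Psma3, further alpha subunits, were higher in every knockout library without passing. Psma7 was at 51.6, 54.8 and 52.7 CPM in wild type and 57.2, 56.2 and 68.6 CPM in the knockout (log2 0.19, edgeR adjusted p = 0.20). Psma3 was at 56.1, 58.2 and 51.1 CPM in wild type and 65.7, 59.2 and 59.04 CPM in the knockout (log2 0.15, edgeR adjusted p = 0.30). Psma1, Psma2, Psma4 and Psma6 overlapped between the genotypes, with log2 fold changes of -0.02 to 0.20. Of the 7 alpha subunits tested 6 lay above 0 (Psma2 at 0.003), beside 50.7% of all tested genes, and 7 did with library size alone. As reported and with library size alone, 5 lay above the median of all tested genes. The median of the 7 was 0.15. Their summed level was 281, 292 and 276 CPM in wild type and 310, 298 and 313 CPM in the knockout, which do not overlap. Psma8, the alpha subunit of spermatogenic cells, had 1 count in wild type and 0 in the knockout.

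Immunoproteasome subunits were scarce in both genotypes. Psmb8, the counterpart of Psmb5, had 0, 1 and 3 counts in wild type and 3, 5 and 0 in the knockout. The group totals of 4 and 8 counts have exact Poisson 95% intervals of 1.09 to 10.2 and 3.45 to 15.8, which overlap. Psmb9, the counterpart of Psmb6, had 0 counts in wild type and 3 in the knockout, which reach but do not exceed 3 counts, the one-sided limit used here for a count of 0 (the two-sided exact interval of 0 counts ends at 3.69). Psmb11, the beta subunit of the thymus, had 0 counts in every library, for which that limit of 3 counts is 0.154 CPM over the wild-type group and 0.173 CPM over the knockout group. These intervals and limits cover counting error only. A difference of these 3 genes was not detectable at this depth.

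Psmb10, the counterpart of Psmb7, was the 1 immunoproteasome gene tested. It was at 2.14, 1.89 and 1.62 CPM in wild type and 2.70, 2.66 and 2.02 CPM in the knockout, which overlap (log2 0.38, 95% interval -0.35 to 1.12, edgeR adjusted p = 0.62). Per kilobase, Psmb8, Psmb9 and Psmb10 together made up 1.86%, 1.69% and 1.73% of the summed catalytic subunit level in wild type and 3.21%, 3.09% and 2.26% in the knockout. These shares do not overlap, rest on 12 to 22 immunoproteasome counts per library, and include the lower Psmb5 in their denominator. Markers of immune cells summed to 8.21 to 12.6 CPM among wild-type and 4.32 to 12.4 CPM among knockout libraries, with 0 of 10 called, 3 of 10 tested and none at 0 in all libraries. Their part in the shares was not tested.

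The ATPase ring of the 19S particle held no call among its 6 members. Psmc5, with the highest level of the ring per kilobase of deposited length, was at 125, 134 and 137 CPM in wild type and 132, 133 and 136 CPM in the knockout. Its log2 fold change of 0.02 had a 95% interval of -0.11 to 0.15. Psmc6, with the lowest level per kilobase, was at 39.2, 45.3 and 39.9 CPM in wild type and 47.1, 50.6 and 42.3 CPM in the knockout, which overlap (log2 0.17, edgeR adjusted p = 0.30). The 6 log2 fold changes ran from -0.11 for Psmc4 to 0.17 for Psmc6, none without overlap. The count of ATPases called was 0 also in DESeq2 and limma-voom, and 0 had an unadjusted p at or under 0.05; with library size alone Psmc3 was called higher.

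Among the 11 non-ATPase subunits of the 19S particle, Psmd1 was called. Psmd1 (Rpn2 in yeast) is a large scaffold of the base on which other subunits dock. It was at 139, 146 and 130 CPM in wild type and 159, 156 and 168 CPM in the knockout, with no overlap. Psmd1 rose by 0.22 (SE 0.06, edgeR adjusted p = 0.036), a ratio of 1.16 (95% interval 1.06 to 1.27). As with Psma5, the call was lost whenever 1 library was left out (adjusted p of 0.056 to 0.17, log2 0.18 to 0.26). It was also lost in DESeq2 (adjusted p = 0.064, log2 0.22), without the filter on low counts (0.054) and with the photoreceptor score (0.13, log2 0.19). The same held with the replicate block (edgeR adjusted p = 0.069, log2 0.22). Without both Xist-positive libraries the log2 fold change was 0.14 (adjusted p = 0.34). Htr2b, which overlaps Psmd1 on the other strand, had 1 count in all libraries together.

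Psmd7 and Psmd14, which form the deubiquitinating pair of the 19S lid, were higher in every knockout library without passing. Psmd7 was at 77.9, 91.4 and 87.0 CPM in wild type and 99.1, 91.5 and 101 CPM in the knockout (log2 0.19, 95% interval 0.04 to 0.34, edgeR adjusted p = 0.13). Psmd14, the catalytic member of the pair, was at 31.05, 26.4 and 32.8 CPM in wild type and 32.9, 34.3 and 34.2 CPM in the knockout (log2 0.17, edgeR adjusted p = 0.38). For both genes the nearest libraries of the groups were almost level.

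Psmd4, the ubiquitin receptor Rpn10 and the most abundant member, was at 258, 260 and 271 CPM in wild type and 270, 284 and 299 CPM in the knockout, which overlap (log2 0.11, 95% interval -0.01 to 0.23). Psmd11, a lid scaffold with the lowest level per kilobase of these subunits, had a log2 fold change of -0.04 (0.07 with library size alone). Of the 11 subunits 9 lay above 0, beside 50.7% of all tested genes, and 10 did with library size alone. As reported and with library size alone, 9 lay above the median of all tested genes. The median of the 11 was 0.09. The summed level of ATPases and non-ATPases was 1465, 1511 and 1482 CPM in wild type and 1580, 1554 and 1583 CPM in the knockout. Those sums do not overlap, and they differ by 0.08 on the log2 scale.

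Of the activators, Psme3 was called. Psme3 (PA28 gamma), the nuclear activator that opens the core for ubiquitin-independent degradation, was at 61.4, 61.2 and 64.7 CPM in wild type and 53.6, 45.6 and 52.8 CPM in the knockout. The groups did not overlap. Psme3 fell by 0.30 (SE 0.08, edgeR adjusted p = 0.022), a ratio of 0.81 (95% interval 0.721 to 0.91). The call did not hold when wild-type replicate 3 (adjusted p = 0.094) or knockout replicate 2 (0.091) was left out, without both Xist-positive libraries (0.072), with the photoreceptor score (0.078), in DESeq2 (0.084) and with library size alone (log2 -0.20, adjusted p = 0.14). The direction was the same in all 17 settings.

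**Figure D3:**
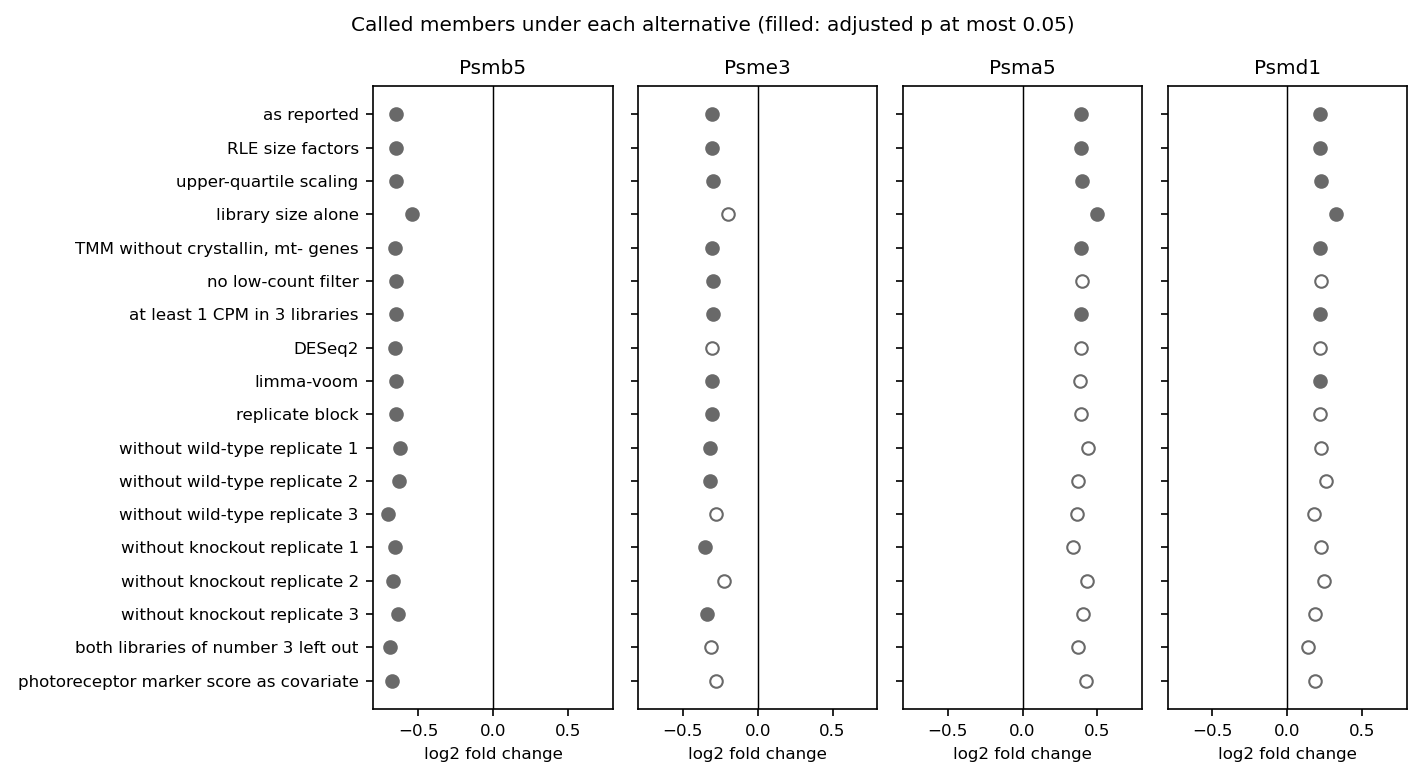
Log2 fold change (horizontal axes) of the 4 called members as reported and under 17 alternative settings; filled points have an adjusted p of at most 0.05. Psmb5 is filled in every row, whereas Psma5 and Psmd1 are open in every row that leaves out 1 library.

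Psme1 and Psme2 (PA28 alpha and beta), which assemble into the interferon-induced activator, did not pass. Psme1 was at 43.9, 53.04 and 56.1 CPM in wild type and 50.9, 50.8 and 41.9 CPM in the knockout (log2 -0.09, 95% interval -0.29 to 0.12, and 0.02 with library size alone). Psme2 was at 10.97, 10.7 and 11.2 CPM in wild type and 12.8, 10.3 and 12.1 CPM in the knockout (log2 0.10, 95% interval -0.23 to 0.42). Both genes overlapped between the genotypes. Psme4 (PA200), an activator linked to histone degradation, was at 126, 107 and 110 CPM in wild type and 128, 122 and 129 CPM in the knockout, which overlap (log2 0.14, edgeR adjusted p = 0.26). With library size alone Psme4 was called higher (log2 0.25, adjusted p = 0.031). Psme2b, a close relative of Psme2 with which it may share reads, had 7 counts in wild type and 5 in the knockout.

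The inhibitor and the assembly chaperones held no call. Psmf1 (PI31) was at 15.2, 14.5 and 15.4 CPM in wild type and 16.2, 15.04 and 15.6 CPM in the knockout (log2 0.05, 95% interval -0.21 to 0.32). Psmd5, Psmd9 and Psmd10, which escort ATPases during assembly of the 19S base, had log2 fold changes of 0.13, 0.16 and -0.11. Psmd10 (gankyrin) varied among replicates, from 9.15 to 15.8 CPM in wild type, and its log2 fold change turned to 0.16 without wild-type replicate 1, to 0.06 without knockout replicate 1 and to 0.0005 with library size alone. Psmg1 and Psmg4, of the chaperones that build the alpha ring, had log2 fold changes of -0.16 and 0.22. Psmg2 and Psmg3, of the same group, had at most 35 and 12 counts in a library, and their 95% intervals reached 1.5-fold in both directions. Psmc3ip, a meiotic recombination factor, and Psme3ip1, a partner of Psme3, match by symbol but encode no subunit, and neither was called (log2 0.37 and 0.13).

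Across the classes, transcript levels were unequal within what is an equimolar particle. In CPM per kilobase of deposited length, wild-type levels ran from 5.70 ± 0.800 for Psma1 to 34.3 ± 2.88 for Psma6 in the alpha ring, and from 7.71 ± 1.28 for Psmb3 to 35.3 ± 2.16 for Psmb6 in the beta ring. They ran from 11.9 ± 0.955 for Psmc6 to 94.6 ± 4.60 for Psmc5 among the ATPases, and from 5.48 ± 0.170 for Psmd11 to 93.8 ± 2.40 for Psmd4 among the non-ATPases (SD, n = 3). Psmc5 and Psmd4 stood at the top, and their means differed by less than the SD of Psmc5. Psmg3 (0.462 ± 0.145), Psmb10 (1.10 ± 0.152), Psmc3ip (1.33 ± 0.615) and Psmd9 (1.59 ± 0.172) had the lowest levels of the tested members. Wild-type class medians were 14.2 for the alpha ring, 16.9 for the beta ring, 43.5 for the ATPases and 18.2 for the non-ATPases.

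**Figure D4:**
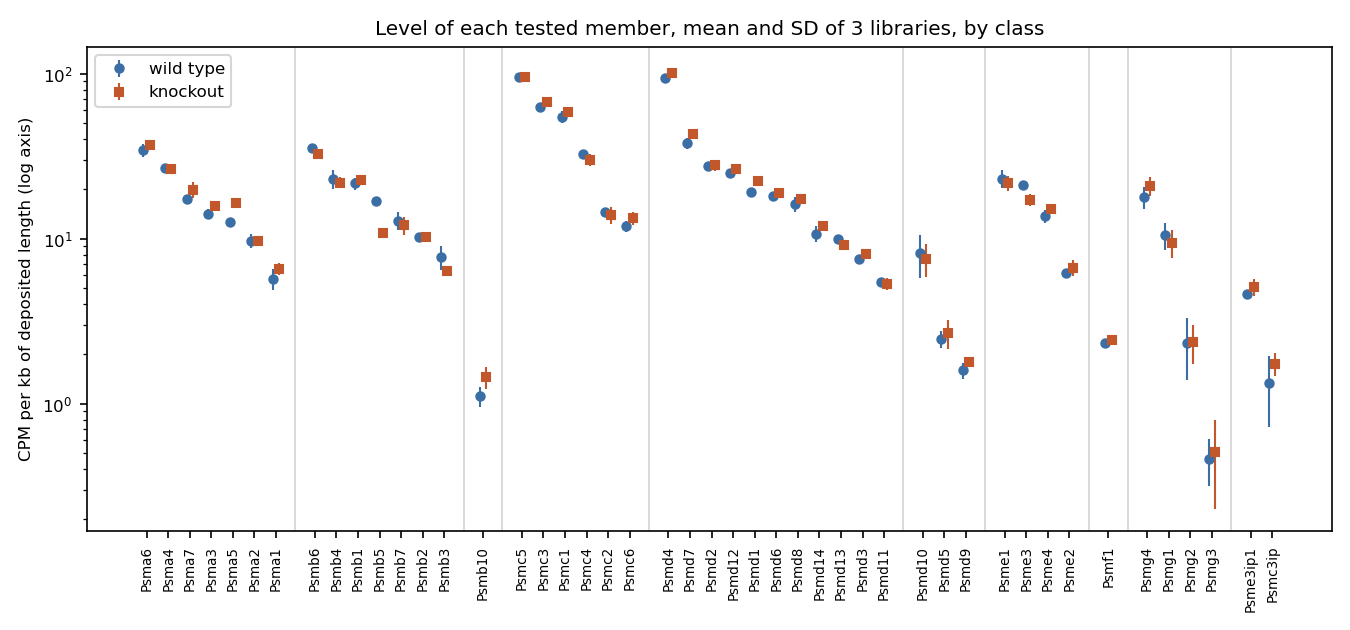
Level of each tested member in CPM per kilobase of deposited length (vertical log axis), mean and SD of 3 libraries per genotype, ordered by level within class. Psmc5 and Psmd4 are at the top in both genotypes, and the order within most classes is nearly the same in both.

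These levels depend on the length used. The deposited length counts every annotated exon, and for Psma7 it is 3.36 times the principal GENCODE M21 transcript, while for Psmb5 the lengths are equal (899 bp). Per kilobase of that transcript, Psmd4 (198) stayed the highest non-ATPase in wild type, whereas Psma7 (58.0) replaced Psma6 as the highest alpha subunit. Among the ATPases, Psmc5 (100.2 ± 4.87) and Psmc3 (99.98 ± 3.91) were level in wild type. In the knockout the mean of Psmc3 (107) was above that of Psmc5 (101.6). Psmb5 was at 16.9 on either length in wild type and had the lowest transcript-based level of the 3 constitutive catalytic subunits, beside 82.8 for Psmb6 and 37.8 for Psmb7. The fold changes between genotypes do not depend on length. All members together took 0.230%, 0.228% and 0.236% of the counts in wild type and 0.262%, 0.265% and 0.254% in the knockout, before TMM scaling. With TMM scaling their summed level was 2415 ± 37.3 CPM over the wild-type and 2516 ± 36.1 CPM over the knockout libraries (SD, n = 3), a log2 difference of 0.06.

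The members lie on 16 chromosomes, with 10 on chromosome 11, 6 each on chromosomes 2 and 14, and none on chromosome 10, which carries Cd24a. The 4 called members lie on chromosomes 1, 3, 11 and 14. Psmb9 and Psmb8 alternate with the peptide transporter genes Tap1 and Tap2 in the order Psmb9, Tap1, Psmb8, Tap2 on chromosome 17, by RefSeq on GRCm38.p6. Psme1 and Psme2 flank Emc9, and Psmb5 is next to Psmb11 among coding genes. Of the 46 tested members, 44 had a lower GC content than Psmb5 (56.6%, median 49.5%). Across the 46 members, which share libraries, Pearson's r of the log2 fold change was -0.11 with GC content and 0.16 with log2 length.

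Of 30 regulators and partners of the proteasome, 29 were tested, with 2 lower, 0 higher and a median log2 fold change of 0.03. The share called was 6.90%, beside 7.50% of all tested genes. Adrm1 (Rpn13), a ubiquitin receptor of the 19S particle outside the Psm symbols, was at 36.9, 40.9 and 39.3 CPM in wild type and 31.3, 28.7 and 30.9 CPM in the knockout, with no overlap. Adrm1 fell by 0.37 (SE 0.09, edgeR adjusted p = 0.015). Ubb, a polyubiquitin gene, fell by 0.23 (adjusted p = 0.038), from 311, 362 and 347 CPM to 294, 265 and 310 CPM, with no overlap although its nearest libraries differed by little. The call of Adrm1 was lost in 5 of 17 alternatives (adjusted p up to 0.089) and that of Ubb in 6 (up to 0.21), and both stayed below 0 in all 17. Nfe2l1, the transcription factor that raises proteasome genes when the proteasome is inhibited, was at 142, 130 and 144 CPM in wild type and 153, 145 and 153 CPM in the knockout (log2 0.11, 95% interval -0.02 to 0.24, edgeR adjusted p = 0.32). These do not overlap, although the nearest libraries were almost level, and 24.4% of all tested genes did not overlap. Pomp, the maturation chaperone of the core, had a log2 fold change of -0.00067 (95% interval -0.19 to 0.19). Sem1, the smallest 19S subunit, had one of -0.09, and was lower without overlap, again with the nearest libraries almost level.

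The antigen presentation genes served by the immunoproteasome held 2 calls, both lower, among 9 of 10 tested (22.2%, beside 7.50% of all tested genes, and median log2 fold change -0.23). Tap2, which moves peptides into the endoplasmic reticulum, was at 4.41, 5.05 and 4.53 CPM in wild type and 1.26, 1.88 and 2.02 CPM in the knockout. H2-K1, an MHC class I gene, was at 7.12, 8.05 and 4.53 CPM in wild type and 1.08, 1.72 and 1.10 CPM in the knockout. Both fell, by 1.42 and 2.30 on the log2 scale (edgeR adjusted p = 0.0057 and 9.24e-05). The groups did not overlap for either gene, but MHC class I genes resemble each other, so reads of H2-K1 may be split by the counting. Both calls held in all 17 alternatives. Tap2 and H2-K1 lie on chromosome 17, as do Tap1, Tapbp and H2-D1 of this list, none of which was called. The part of this shared chromosome, or of strain, in the 2 calls was not tested. Nlrc5, a regulator of MHC class I genes, had a log2 fold change of 0.13 (adjusted p = 0.55).

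In the authors' deposited table, which lists 46 of the members, 2 had a q-value under 0.05, both lower, and 0 differed by over 2-fold. The share of all genes under that threshold was not computed, so these counts have no background beside them. The authors' deposited table gives Psmb5 a fold change of -1.57 with q = 0.0047 and mean FPKM of 16.9 and 10.7, and Psme3 a fold change of -1.23 with q = 0.030. In the authors' deposited table Psma5 (q = 0.061) and Psmd1 (q = 0.069) did not reach that threshold.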

How the data were processed

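Per the labels' protocols and the series text, total RNA of whole lenses was ribodepleted, made into stranded single-end libraries for low input, and run on 4 sequencing lanes each. GRCm39, HISAT2, HTSeq and edgeR come from the submitters' processing notes, which give no settings. Whether counting used strand is not stated there. The authors deposited raw read counts on Ensembl 104 features per the file headers, with each gene's exon length and its GC fraction. The authors' deposited comparison table gives a signed fold change (a score never between -1 and 1), p-values with Storey q-values and mean FPKM per group.

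From the deposited counts, genes were filtered with filterByExpr, scaled by TMM and tested for genotype by the two-sided quasi-likelihood F test of edgeR 4.0.16 in R 4.3.3 (limma 3.58.1), and p-values were adjusted by Benjamini-Hochberg over 11474 genes. The SE was taken as the absolute log2 fold change over the root of F, and intervals are 95%. The common biological coefficient of variation was 7.19%. The members, gene lists and tests were chosen with earlier results of these data known. The series text calls the samples biological replicates, and libraries differed beyond sampling noise (chi-square per degree of freedom 2.76 or more). Named genes were the called members, the catalytic and immunoproteasome subunits, the activators, Psmf1, the highest and lowest member of each class per length, and up to 4 called genes of each list. Any other gene was named with its values known. The script was tested on simulated data. Alternatives were other scalings and filters, DESeq2 1.42.0, limma-voom, a replicate block, leaving out libraries, a photoreceptor covariate, and transcript lengths, the last chosen after seeing the data.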

Additional observations from a re-analysis of the deposited data

How the results depend on the processing

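Psmb5 kept its direction and its call in all 17 alternatives. Members called higher numbered 8 with library size alone, 1 in limma-voom, and 0 in DESeq2, with no low-count filter, with both Xist-positive libraries left out, with the photoreceptor score and without any 1 library (0 to 0). Of all tested genes, 8.79%, 3.02%, 1.91%, 1.49%, 1.81% and 2.18% were called higher in these settings, in that order. Without 1 library that share was 1.64% to 2.51%. Members called lower numbered 1 with library size alone, in DESeq2, with both Xist-positive libraries left out and with the photoreceptor score, and 1 to 2 without 1 library. The shares of all tested genes called lower were 2.93%, 3.09%, 3.76% and 3.74% in that order, and 3.10% to 4.10% without 1 library. All genes called numbered 1344 with library size alone, 574 in DESeq2 and 562 to 782 without 1 library. The members' median log2 fold change was 0.19 with library size alone, 0.062 with both Xist-positive libraries left out and 0.060 to 0.074 without 1 library. Same-numbered libraries had residual correlations of 0.05, -0.03 and 0.03, and differently numbered ones ran from -0.08 to 0.04. With 3 libraries per group these values cannot decide whether the replicate numbers pair the libraries. Number 3 was the Xist-positive library in both groups. With the replicate block 0 members were higher, 2 lower and 781 genes called (2.55% of all tested genes higher and 4.25% lower). Per kilobase of the principal transcript, wild-type class medians were 19.4 (alpha ring), 37.8 (beta ring), 57.5 (ATPases) and 34.8 (non-ATPases).

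Of 26 genes (22 tested members and the called list genes Adrm1, Ubb, Tap2 and H2-K1, the last 4 added after seeing the data), uncalled members near 0 changed sign in 13 of 441 values, and 40 values lost a call. With library size alone these were Psmb7 (0.016), Psmd11 (0.065), Psmd10 (0.00053) and Psme1 (0.025). Psme1 was at 0.068 with both Xist-positive libraries left out. Without 1 library, Psmb7 ranged from -0.20 to 0.014, Psmc5 from -0.021 to 0.045, Psmd11 from -0.11 to 0.00024, Psmd10 from -0.27 to 0.16 and Psmg3 from -0.10 to 0.54. The cause was not tested. Depth limits Psmb8, Psmb9, Psmb10, Psmg2 and Psmg3, whose intervals are wide.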
